A study of Mus musculus with 14 samples.

Results

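The cytosolic ribosome of mammals is built from ribosomal RNAs and a fixed set of proteins, nearly all encoded by separate genes. The 77 genes described here are the rows of the count table whose symbol is Rpl or Rps with a number, with an added a or x where present, together with Rplp0, Rplp1, Rplp2, Rpsa and Rps3a1. They make 77 of the 27099 gene rows, 46 of them for the large and 31 for the small subunit. Membership rests on gene names alone, though the family was chosen with earlier results of these data known. Fau, whose ribosomal protein is released from a fusion with a ubiquitin-like protein, does not match the naming rule and is given apart, as is Rack1.

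RNA came from bone marrow stromal cells (BMSCs) sorted for GFP in Nestin-GFP reporter mice, in which regulatory elements of the nestin gene drive GFP, and split into a Nes-GFP high and a Nes-GFP low population. AML mice were iMLL-AF9 animals, which carry rtTA in the ROSA26 locus and MLL-AF9 behind a tetracycline-response element, were given doxycycline and were taken once leukemic. They gave 2 Nes-GFP high and 4 Nes-GFP low libraries. Normal mice, given sucrose water per the study's methods, gave 2 Nes-GFP high and 6 Nes-GFP low libraries. The paper calls these controls WT. Leukemia, doxycycline and any difference in transgenes cannot be told apart in any comparison of AML with normal mice. The study's methods give males and females of 8 to 12 weeks for its experiments in general, and no age at sorting. The labels give GFP+, CD45-, CD31- and DAPI- cells after red cell lysis, and the methods add Ter119- to this gate. Libraries came from 1 mouse or from pools of 2 mice, it is not stated which, so that p-values measure the spread between libraries. Because the samples are bulk RNA, fewer cells of a type and less RNA per cell cannot be told apart.

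Ribosomal protein mRNAs are among the most abundant messages of a growing cell and are made in near-balanced amounts, since a ribosome takes up its proteins in fixed proportion and unassembled copies are degraded. Their translation is controlled as a group: the mRNAs begin with a 5' terminal oligopyrimidine (TOP) tract, a C followed by a run of C and U, through which mTOR signalling and the LARP1 protein set how many of them are translated. Blood-forming tissue is sensitive to a shortage, and in humans mutations in several of these genes cause Diamond-Blackfan anemia.

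The start sites of the genes are shown because a pyrimidine tract is known from this family. A RefSeq promoter record on GRCm38 was matched by symbol for 57 of the 77 genes. Each line below holds 10 bases before and 20 bases after an annotated start, with the longest unbroken run of C and T in capitals.

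Rps6 (chr4:86857348-86857377, minus strand): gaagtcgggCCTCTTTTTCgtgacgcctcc
Rpl28 (chr7:4792955-4792984, plus strand): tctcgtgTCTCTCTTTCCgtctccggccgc
Rplp2 (chr7:141447641-141447670, plus strand): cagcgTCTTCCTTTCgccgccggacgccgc
Rps27 (chr3:90213629-90213658, minus strand): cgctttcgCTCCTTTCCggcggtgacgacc
Rpl38 (chr11:114668570-114668599, plus strand): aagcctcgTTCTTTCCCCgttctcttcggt
Rpl14 (chr9:120571507-120571536, plus strand): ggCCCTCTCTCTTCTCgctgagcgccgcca
Rpl13a (chr7:45128726-45128755, minus strand): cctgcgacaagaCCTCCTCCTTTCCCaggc
Rps2 (chr17:24720053-24720082, plus strand): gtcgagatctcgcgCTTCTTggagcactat
Rps19 (chr7:24884903-24884932, plus strand): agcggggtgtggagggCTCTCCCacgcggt
Rpl24 (chr16:55966265-55966294, plus strand): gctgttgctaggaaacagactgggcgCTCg
Rplp0 (chr5:115559457-115559486, plus strand): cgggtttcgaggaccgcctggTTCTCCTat
Rack1 (chr11:48800350-48800379, plus strand): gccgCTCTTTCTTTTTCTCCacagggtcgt

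The first 7 genes and Rack1, a ribosomal protein outside the naming rule, were picked as genes of the results below that have a run of at least 8. The other 4 (Rps2, Rps19, Rpl24 and Rplp0) belong to the same results and have none, as do 34 of the 57 matched members. Of the 7 members with a run, it spanned the annotated start in all but Rpl13a, where it began within the first transcribed bases. A match is a description of the letters and not a mapped start of the mRNAs in these cells. A run of at least 8 bases of C and T lay in this window in 23 of the 57 matched members (40.4%), against 13.01% of the 27025 genes of the promoter table, taking for each gene the record with the longest run. Read on the opposite strand, such a run was found in 5.26% of the members and 15.4% of all genes. Among other mRNAs known to start with a pyrimidine tract, 5 of 15 matched genes (33.3%) had it, a share near that of the members. Ribosome assembly factors, which make ribosomes but are not part of them, had it in 4.65% of 43 genes and subunits of the proteasome in 9.38% of 32. The 7-base sequence CCGGAAG, searched on both strands of the whole 300-base records, was in 24 of 57 members (42.1%) and in 9.93% of all genes. It was no mark of the family, as 41.9% of the assembly factors and 36.8% of 68 mitochondrial ribosomal protein genes held it. The 23 members with a run and the 34 without one varied by the same amount around the median member, with a median SD of 0.27 on the log2 scale in both.

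Counts were scaled to CPM (counts scaled to a common library size) after TMM normalization, which sets each library's scale from the bulk of its genes. Libraries held 5615941 to 11436652 counts, and AML Nes-GFP low replicate 4 was the shallowest. Transcripts of all 77 genes were present in every library, and the lowest count of any member in any library was 65. Nes read 32.3 and 26.7 CPM in AML BMSCs sorted as Nes-GFP high, 2.27 and 36.0 CPM in their normal counterparts, and 0 to 5.70 CPM across the Nes-GFP low population. The counts of 0 in AML replicate 4 and normal replicate 2 of that population allow up to 0.489 and 0.284 CPM, taking 3 counts as the limit and covering counting error only. Normal Nes-GFP high replicate 1 therefore stood apart from its group, and it also had the fewest genes detected, 14842 against 18177 to 20197 elsewhere. Markers of other cell types differed widely between libraries: a list of 16 myeloid genes summed to 793 to 108540 CPM and a list of 13 erythroid genes to 34.8 to 6698 CPM, and Ptprc, which encodes CD45, ranged from 3.95 to 483 CPM. Pecam1 of endothelium, which encodes the CD31 sorted against, read at most 47.5 CPM. A list of 10 endothelial genes summed to 18.0 to 611 CPM, highest in AML Nes-GFP low replicate 3, where Pecam1 read 9.98 CPM. A list of 17 stromal genes summed to 3198 to 119531 CPM, lowest in AML Nes-GFP low replicate 3, and Cxcl12, which the niche cells are known for, read 278 to 42626 CPM.

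The share of the library that went to the 77 genes varied by library far more than by group. In AML Nes-GFP low BMSCs the 77 genes summed to 17641, 19650.0, 27235 and 57041 CPM. The 6 normal Nes-GFP low libraries ranged from 13862 through a median of 20073 to 35429.5 CPM. In the Nes-GFP high population the sums were 36742 and 17286 CPM for AML, against 28152 and 19184 CPM for normal mice. The groups overlapped in all 4 pairings, and the largest difference inside a group, 3.23-fold among AML Nes-GFP low libraries, was close to the 4.11-fold range of all 14. Group means were 30392 ± 18240 (SD, n = 4) and 22779 ± 9083 (n = 6) CPM in the low, and 27014 ± 13758 (n = 2) and 23668 ± 6341 (n = 2) CPM in the high population, AML first. As a part of all counts, the genes took 1.28% to 6.23%, the latter in AML Nes-GFP low replicate 4.

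**Figure D1:**
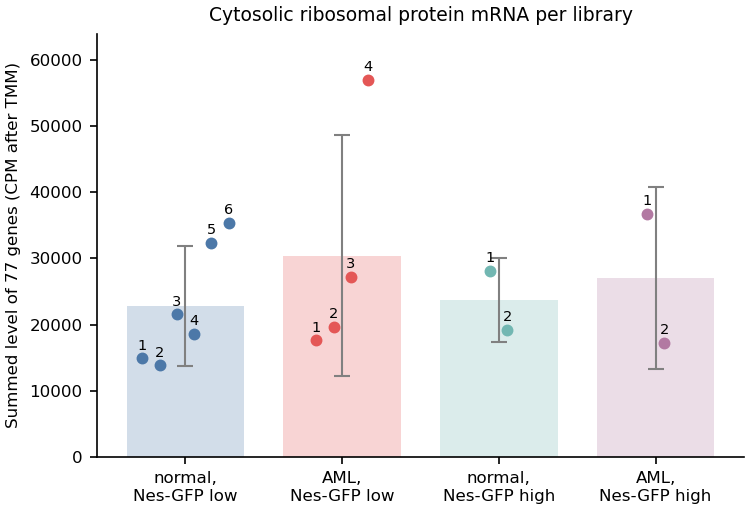
Summed level of the 77 ribosomal protein genes in each library, in CPM after TMM, by group. Points are libraries with their replicate number, bars are group means and error bars the SD. AML Nes-GFP low replicate 4 lies at 57041 CPM, and the other 13 libraries lie between 13862 and 36742 CPM with every pair of groups overlapping.

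The members went up and down together from library to library. Of the 77 genes, 67 had their highest level in AML Nes-GFP low replicate 4, and 54 had their lowest in normal Nes-GFP low replicate 1 or 2. Of all variance in the members' log2 levels around their own means, 79.3% followed the median member of the library, and 81.2% when Rpl13a was left out. The large and small subunits kept in step, as the median large-subunit gene and the median small-subunit gene differed by -0.13 to 0.11 on the log2 scale in any library, after each gene was centred on its own mean. Small-subunit genes made 38.7% to 42.9% of the sum. Among genes with a mean of 100 to 1000 CPM, the median SD within groups was 0.68 on the log2 scale for 71 members and 0.81 for 1748 other genes.

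**Figure D2:**
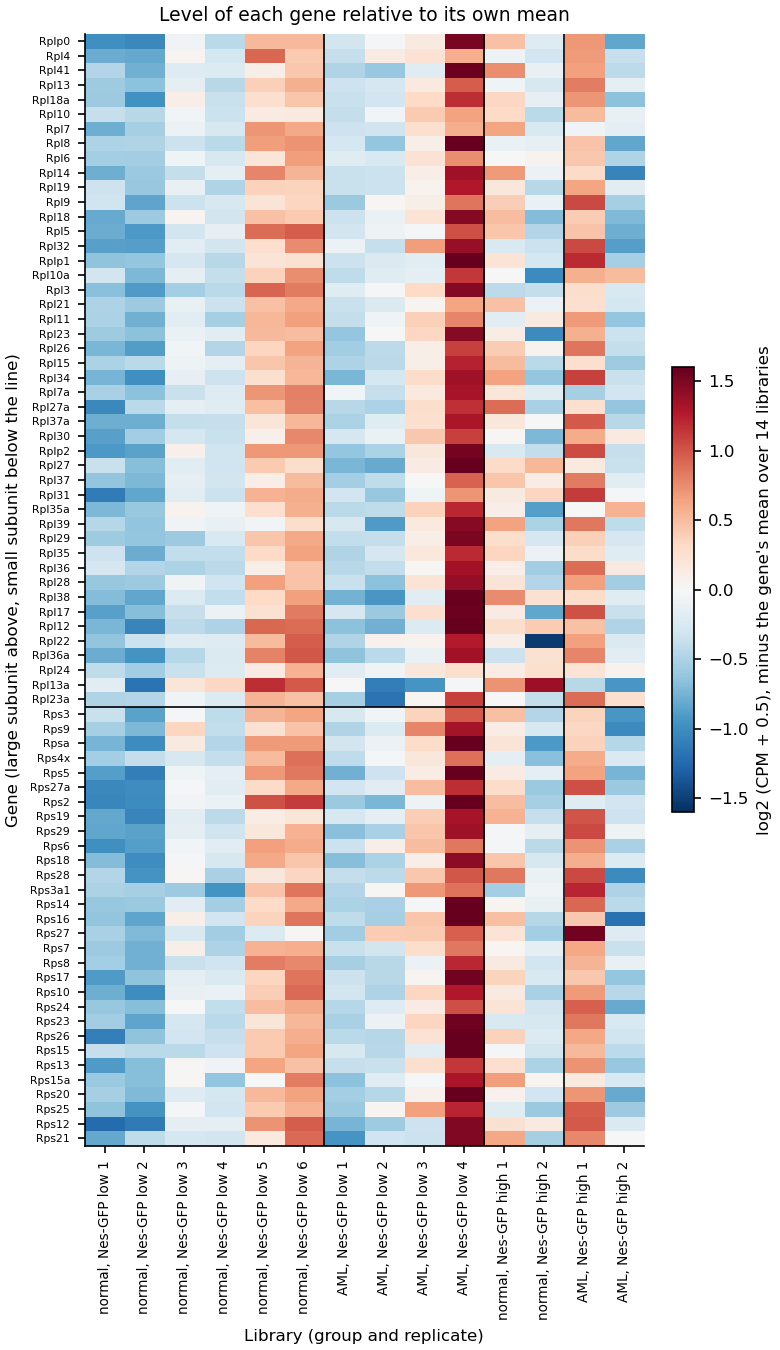
Level of 76 of the 77 genes (rows, large subunit above the line, small below, each ordered by median CPM) in each of the 14 libraries (columns, by group), as log2 of CPM plus 0.5 minus the gene's own mean. Some columns are almost wholly of one colour and others are mixed. AML Nes-GFP low replicate 4 is the highest library for nearly all genes, while Rpl13a, near the bottom of the large subunit, keeps an order of its own.

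Per kilobase of the principal transcript, levels differed widely between members. Rpl41, which encodes a very short peptide of the large subunit, led with a mean of 1553 CPM per kb, followed by Rps29 with 1077, Rplp0 with 1021, Rpl13 with 903 and Rps28 with 876 CPM per kb. Rpl13a was lowest with 20.1 CPM per kb, Rpl23a had 29.9 and Rps15a 36.5, against a median of 362 CPM per kb. The low rank of Rps15a goes with an annotated principal transcript of 5130 bases. Many members have processed copies elsewhere in the genome: a median of 56.6% of the 50-base windows of a member's transcript recur letter for letter in a transcript of another gene record, and the share was 57.4% for Rpl13a and 85.6% for Rpl23a. How reads that fit several places were counted is not stated, and the part of copies in these levels was not tested.

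The acidic stalk of the large subunit, to which elongation factors bind, is formed by Rplp0, Rplp1 and Rplp2. Rplp0 (chromosome 5, 115559467 to 115563727) was the most abundant member in CPM, at 1002, 1216, 1361 and 3519 CPM in AML and 605 to 1765 CPM, with a median of 1050.3, in normal Nes-GFP low libraries. Its Nes-GFP high levels were 1985 and 692 CPM for AML, against 1706 and 1067 CPM for normal mice. The groups overlapped in both populations. Rplp1 had 259, 280.4, 290.4 and 1064 CPM in AML and 211 to 392 CPM (median 258) in normal Nes-GFP low libraries, so that 3 of the 4 AML values lay inside the normal range. Rplp2 followed the same order, with 135, 145, 234 and 602 CPM against 109.8 to 335 CPM (median 193).

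Rps6, a small-subunit protein and the best known target of S6 kinase, had 283, 381, 505 and 642 CPM in AML and 182 to 563 CPM (median 333) in normal Nes-GFP low libraries. In the Nes-GFP high libraries it had 589 and 250.05 CPM for AML, against 349 and 266 CPM for normal mice. Each AML value but the highest in either population lay within or below the normal range. Rps19, the gene most often mutated in human Diamond-Blackfan anemia, had 331, 357, 521 and 992 CPM in AML and 190.2 to 451 CPM (median 322) in normal Nes-GFP low libraries. The lower pair of AML values lay within the normal range and the upper pair above it. Rps24, also mutated in that anemia, had 160.5, 190.3, 241 and 449.6 CPM against 137 to 334 CPM (median 193). Rps14, lost in the human 5q- syndrome, had 219.7, 217, 306 and 982 CPM against 204 to 477 CPM (median 245), and only AML replicate 4 exceeded the normal libraries in either gene.

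Rpl5 and Rpl11 join 5S ribosomal RNA and, when ribosome assembly stalls, bind Mdm2 and so stabilize p53. Rpl5 had 265, 306, 317 and 661 CPM in AML and 171 to 633 CPM (median 280.5) in normal Nes-GFP low libraries. Rpl11 had 213, 266, 361 and 479 CPM against 163 to 437 CPM (median 222). Both groups overlapped in both genes. In the Nes-GFP high population Rpl11 had 447 and 181 CPM for AML, against 246 and 308 CPM for normal mice, with both normal values between the AML values.

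Rpl10, an X-linked protein added late in assembly and mutated in some human T cell leukemias, had the narrowest range of the members from lowest to highest library. It was 2.12-fold, from 385 to 815 CPM over all 14 libraries. Rps4x, the X-linked small-subunit protein, ranged 2.94-fold. At the other end Rps2, which lines the mRNA entry of the small subunit, ranged 8.28-fold, from 195 to 1613 CPM, and Rpl38, needed in mice for translation of certain Hox mRNAs, ranged 7.18-fold, from 70.9 to 509 CPM. Rpl22, deleted in some human T cell leukemias, ranged 7.09-fold with its lowest value, 37.2 CPM, in normal Nes-GFP high replicate 2. The median member ranged 4.68-fold, so these genes mark the extremes of a family that mostly shares 1 range. Rpsa, also known as the laminin receptor, had 367, 424, 553 and 1361 CPM in AML and 225 to 725 CPM (median 412) in normal Nes-GFP low libraries. Rps27a, which is made as a fusion with ubiquitin, had 328, 358, 569 and 919.8 CPM against 198 to 615 CPM (median 378). Rpl3, which lies near the peptidyl transferase centre, had 271, 305, 389 and 861 CPM against 165 to 595 CPM (median 222). For Rpl39, a short protein of the exit tunnel, the values were 131, 83.5, 174 and 431 CPM against 101 to 190.1 CPM (median 148). AML replicate 4 was above every normal library for all 4 genes, and the other 3 AML libraries lay within or below the normal range.

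AML and normal mice were compared first in the Nes-GFP high population. The members had a median log2 fold change of 0.26, against 0.08 for all 18152 genes tested, and 53 of the 77 lay above and 24 below 0. None passed edgeR's quasi-likelihood test after Benjamini-Hochberg adjustment (smallest adjusted p = 0.452), where 0% of all genes passed, and 0 members against 12.2% of all genes had an unadjusted p under 0.05. DESeq2 called 0 members, with 1 at an unadjusted p under 0.05, against 9.9% of all genes, and limma's voom fit called 0 members here and in the other 4 comparisons. Every library of AML lay above every normal library for 6 members (Rpl10a, Rps23, Rpl36, Rpl23a, Rpl30 and Rpl3, of which Rpl36 and Rpl30 were named after their values were seen) and below for 3 (Rpl7a, Rpl27 and Rpl13a), against 16% and 11.5% of all genes. The median followed single libraries: it was -0.46 without AML Nes-GFP high replicate 1, 0.63 without replicate 2, and with a normal Nes-GFP high library left out it was -0.03 (replicate 2) or 0.54 (replicate 1, the one that stood apart).

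The smallest p in that comparison belonged to Rpl13a. This large-subunit gene (chromosome 7, 45125558 to 45128761), known in human monocytes for leaving the ribosome to silence inflammatory mRNAs and widely used as a reference gene in PCR, had 13 and 9.10 CPM in the AML libraries of that population, against 29.8 and 46.9 CPM in the normal ones. Both AML values lay below both normal values. The log2 fold change was -1.79 ± 0.94 (SE), with a 95% interval of -3.81 to 0.23 and an adjusted p of 0.452 in edgeR. DESeq2 gave -1.89 with an adjusted p of 0.073. Rps27 (chromosome 3, 90212522 to 90213651), a zinc finger protein of the small subunit, had 772 and 230.0 CPM against 309 and 182 CPM, a log2 fold change of 1.03 ± 0.62 (edgeR adjusted p = 0.526) that turned to -0.12 without AML Nes-GFP high replicate 1. Rpl10a of the large subunit had 446 and 427 CPM against 302 and 149 CPM, or 0.96 ± 0.65 (edgeR adjusted p = 0.599). Both AML values of Rpl10a lay above both normal values, and the estimate was 0.48 without normal Nes-GFP high replicate 2 and 1.66 without replicate 1.

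In the Nes-GFP low population the members leaned one way without passing the test. Their median log2 fold change was 0.40, against 0.003 for all genes, and 76 of the 77 lay above 0, the exception being Rpl13a. edgeR called 0 members and 0% of all genes, and 0 members had an unadjusted p under 0.05, against 5.54% of all genes. DESeq2 called 0 members (0 at an unadjusted p under 0.05) and 0.738% of all genes. No member had every AML library above or every AML library below the normal ones, against 0.441% and 0.667% of all genes. Because the members share the order of the libraries, the count of 76 is not 76 separate observations: without AML Nes-GFP low replicate 4 the median was -0.10. That library also had the highest sum of OXPHOS genes, the lowest total count, and an erythroid sum of 5286 CPM against 34.8 to 141 CPM in the other AML Nes-GFP low libraries. Over the whole comparison 13 of 13 erythroid genes (median -1.70), 12 of 13 lymphoid genes (-2.14) and 16 of 17 stromal genes (-1.17) lay below 0, and 12 of 16 myeloid genes (0.61) above 0. The part of these in the result was not tested.

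By p, Rps27 came first in this population, with 179.6, 352, 354 and 513 CPM in AML and 162 to 268 CPM (median 204) in normal Nes-GFP low libraries. In 3 of the 4 AML libraries it exceeded every normal library, and replicate 1 lay within the normal range. Its log2 fold change was 0.75 ± 0.39, with a 95% interval of -0.10 to 1.601 and an adjusted p of 0.9999 in edgeR, and it was 0.54 without AML replicate 4. Rps19 came next with 0.77 ± 0.43, from the levels given above. Rps23, a protein of the decoding centre, had 159, 212, 286 and 668 CPM against 125 to 327 CPM (median 177), or 0.70 ± 0.45. Without AML replicate 4 these values became 0.35 and 0.14. Rpl13a went the other way, with 17.9, 8.0, 9.06 and 17.6 CPM in AML and 7.56 to 40.9 CPM (median 21.5) in normal libraries, or -0.86 ± 0.60 (edgeR adjusted p = 0.9999). Each of the 4 AML values was under the normal median and above the normal minimum.

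**Figure D3:**
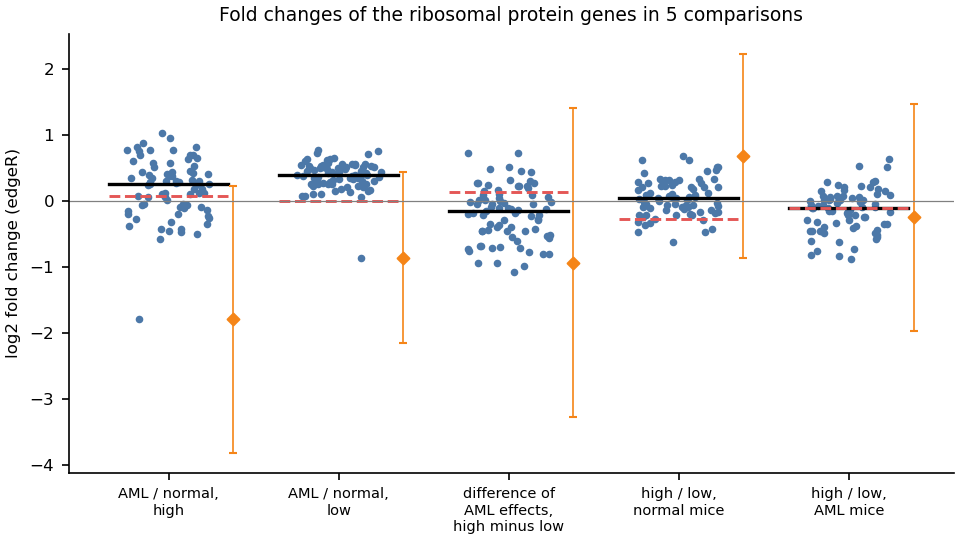
edgeR log2 fold changes of the 77 genes (blue points, spread sideways) in the 5 comparisons, with their median (black line), the median of all 18152 genes tested (red dashed line) and Rpl13a repeated as an orange diamond with its 95% interval. The members' median lies at 0.40 for AML against normal Nes-GFP low BMSCs, where Rpl13a is the only point below 0, and every interval of every member holds 0.

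The interaction tested whether the contrast of AML with normal mice differed between the 2 populations. It is the AML effect in Nes-GFP high minus that in Nes-GFP low BMSCs. The members' median was -0.15, against 0.14 for all genes, with 25 above and 52 below 0. edgeR called 0 members and 0% of all genes, and 0 members and 9.96% of all genes had an unadjusted p under 0.05. DESeq2 called 0 members (0 at an unadjusted p under 0.05) and 4.93% of all genes. The lowest p belonged to Rpl27 (-0.99 ± 0.88), Rpl14 (-0.93 ± 0.88) and Rpl38 (-1.08 ± 1.04), all large-subunit genes, with edgeR adjusted p of 0.879, 0.904 and 0.915. In Rpl38 the AML Nes-GFP low values were 79.6, 70.9, 120.2 and 509 CPM, so that replicate 4 stood far above the rest of its group, and without it the estimate was -0.03, while it was -0.61 without normal Nes-GFP high replicate 1. Rpl27 was at -0.24 without AML Nes-GFP low replicate 4. Rpl14 was at -1.81 and -0.45 without replicate 1 and 2 of AML Nes-GFP high, -0.34 without normal Nes-GFP high replicate 1 and -0.44 without AML Nes-GFP low replicate 4. The median of all members was 0.29 without AML Nes-GFP low replicate 4 and -0.84 without AML Nes-GFP high replicate 1.

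Nes-GFP high and low BMSCs of normal mice differ in the GFP by which they were sorted. Here the members had a median log2 fold change of 0.05, against -0.27 for all genes, with 41 above and 36 below 0. edgeR called 0 members and 0% of all genes, and 0 members and 11.2% of all genes had an unadjusted p under 0.05. DESeq2 called 0 members (0 at an unadjusted p under 0.05) and 10.5% of all genes. No member had every Nes-GFP high library above or every one below the Nes-GFP low libraries, against 3.47% and 7.86% of all genes. Rps28, a small protein at the mRNA exit site, had 543 and 281 CPM in the high and 155 to 384 CPM (median 262) in the low population, or 0.61 ± 0.57 (edgeR adjusted p = 0.704), which became -0.09 without normal Nes-GFP high replicate 1. Rpl13a had 0.69 ± 0.72 and Rpl22 -0.62 ± 0.65, and the value of Rpl22 rested on the 37.2 CPM in normal Nes-GFP high replicate 2, without which it was 0.06. It was -1.82 without normal Nes-GFP high replicate 1 and -0.32 without normal Nes-GFP low replicate 6, Rps28 was 1.08 and Rpl13a 0.40 without normal Nes-GFP high replicate 2. The median of the members was -0.41 without normal Nes-GFP high replicate 1 and 0.30 without replicate 2.

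In AML mice the members' median for Nes-GFP high against low was -0.10, equal to that of all genes at -0.10, with 29 above and 48 below 0. edgeR called 0 members and 0% of all genes, with 0 members and 8.97% of all genes at an unadjusted p under 0.05. DESeq2 called 0 members (0 at an unadjusted p under 0.05) and 6.82% of all genes. No member separated the groups, against 6.91% of all genes with every high library above and 8.83% with every high library below. Rpl7a of the large subunit had 168 and 197 CPM in the high and 235, 188, 271 and 606 CPM in the low population, or -0.83 ± 0.60 (edgeR adjusted p = 0.664), and -0.34 without AML Nes-GFP low replicate 4. Rps9 had 638 and 252 CPM against 363, 439, 876 and 1280.5 CPM, or -0.73 ± 0.60. It is an early-binding protein of the small subunit, and its groups overlapped. The estimate was -1.53 without AML Nes-GFP high replicate 1, -0.20 without replicate 2 and -0.33 without AML Nes-GFP low replicate 4. The members' median was -0.77 without AML Nes-GFP high replicate 1, 0.29 without AML Nes-GFP high replicate 2 and 0.37 without AML Nes-GFP low replicate 4.

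These counts of 0 come with limits on what could be seen. The median standard error of a member's log2 fold change was 0.72 for AML against normal in the high and 0.46 in the low population, against 1.58 and 1.02 for all genes tested. The 95% interval held 0 for all 77 members in all 5 comparisons. For AML against normal mice it lay wholly within 4-fold in either direction for 76 of 77 members in the low and for 45 in the high population. Differences inside these intervals could not be told from 0 with these libraries, and the p-values do not show that the groups were alike.

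Since a shared shift carries most of the variance, each gene was also set against the median member of its own library. The members' SD around that median over the 14 libraries was 0.27 on the log2 scale at the median and under 0.3 for 55 of the 77. The steadiest were Rpl28 (SD 0.13), Rpl19 (0.14) and Rpl29 (0.16), all of the large subunit. The widest were Rpl13a (0.86), Rps27 (0.46), Rps2 (0.44), Rps3a1 (0.42) and Rpl24 (0.40). Rpl24, which bridges the subunits, was low relative to the others in AML Nes-GFP low replicate 4 (-1.02), where its 59.8 CPM stood beside 43.8, 47.9 and 56.5 CPM in the other libraries of the group while the median member went from 186, 193 and 286 to 621 CPM. Rps2 was highest in the same library (0.72) and lowest in AML Nes-GFP high replicate 1 (-0.78). Rps3a1 was lowest in normal Nes-GFP high replicate 1 (-0.73) and highest in AML Nes-GFP high replicate 1 (0.64).

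Rpl13a had the widest spread around the median member. Relative to the median member and centred on its own mean, it was at -1.03 and -0.49 in the AML and 0.53 and 1.67 in the normal Nes-GFP high libraries. In the Nes-GFP low libraries it was at 0.46, -0.71, -1.11 and -1.30 in AML and at -0.53 to 0.74 in normal mice. It lay below its mean in 5 of 6 AML and above it in 7 of 8 normal libraries. Such a split, in 12 or more of the 14 libraries and in either direction, was found in 4 of the 77 members: Rpl15 was below its mean in 6 of 6 AML and above in 6 of 8 normal libraries, while Rps19 (above in 6 of 6, below in 7 of 8) and Rps23 (above in 5 of 6, below in 7 of 8) went the opposite way. Rpl15 was named after its values were seen. Rpl13a only just meets the limit of 12, and the share of all genes with such a split was not determined, so the count does not mark Rpl13a out. With libraries scaled to the members in place of TMM, the log2 fold change of Rpl13a was -2.0 ± 0.84 in the high population (unadjusted p = 0.0339 and adjusted p = 0.478 over all genes in edgeR) and -0.92 ± 0.54 in the low population (edgeR adjusted p = 0.9999). Per kilobase it is the lowest gene of the family, and the part of reads shared with its copies was not tested.

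**Figure D4:**
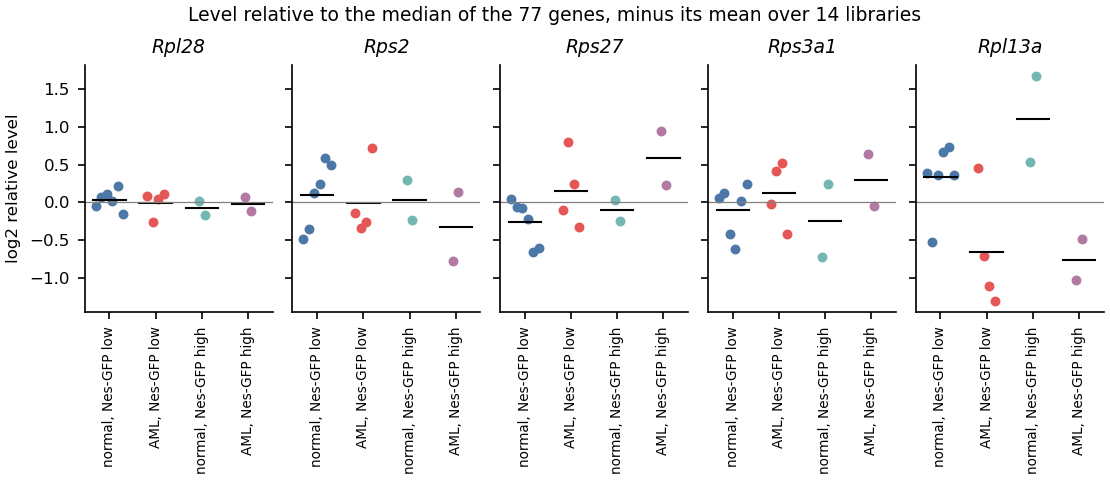
Level of 5 members relative to the median of the 77 genes in the same library, on the log2 scale and centred on the gene's mean over 14 libraries, by group. Points are libraries and lines group means. Rpl28, the steadiest gene, stays within -0.26 and 0.21, Rps2, Rps27 and Rps3a1 spread more widely, and Rpl13a spreads from -1.30 to 1.67.

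Proteins of the ribosome outside the naming rule were measured alongside. Rack1, a scaffold protein on the head of the small subunit, had 268, 292, 402 and 1277 CPM in AML and 236 to 774 CPM (median 384) in normal Nes-GFP low libraries, the order of the members. Fau, the source of the small-subunit protein eS30, had 274, 365, 763 and 754 CPM against 193 to 467 CPM (median 309), so that AML replicate 3 was as high as replicate 4. Neither Fau nor Rack1 passed the edgeR test in any comparison, nor had an unadjusted p under 0.05.

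Like-named paralogs were mixed. Their sum over 8 genes was 451, 479, 502 and 807 CPM for AML Nes-GFP low BMSCs, highest in replicate 4 as the members were. Rpl22l1, the paralog that stands in for Rpl22, had 46.6, 70.7, 28.7 and 42.9 CPM in AML Nes-GFP low libraries, where AML replicate 4 was among the lower values. Rpl39l, a testis-enriched paralog, had 0 counts in AML Nes-GFP high replicate 1 and AML Nes-GFP low replicate 3, and up to 38.6 CPM in normal Nes-GFP low replicate 1. Counts of 0 allow up to 0.372 and 0.277 CPM in those libraries. Rps27rt, a copy of Rps27 in a single exon, followed its parent with 267 and 68.2 CPM for AML, against 103 and 56.9 CPM for normal mice, in the Nes-GFP high population. Of the windows of Rps27, 98.65% recur in another gene record, with Rps27rt sharing the most, so that reads of the pair are uncertain. A set of 231 rows named as pseudogenes of these genes summed to 16.4% to 18.7% of the members' sum in every library, nearly the same share throughout.

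Other parts of the translation machinery were read beside the family, as descriptions. A list of 21 other mRNAs known to carry a pyrimidine tract, such as the elongation factors Eef1a1 and Eef2, was taken as given. In the start windows used above, 5 of its 15 matched genes had a run of at least 8. The longest run was 10 in Eef1a1 and 6 in Eef2. Of these 21 mRNAs, 0 passed the edgeR test in any comparison. Their median log2 fold change was 0.39 for AML against normal in the high and 0.18 in the low population, with 1 gene higher at an unadjusted p under 0.05 in the high (Eif3l, a subunit of initiation factor 3) and 0 in the low population. Of 53 ribosome assembly factors, 0 passed, and at an unadjusted p under 0.05 there were 5 with higher and 3 with lower levels in the high population, and 0 in the low. For all genes those shares were 12.2% and 5.54%, and the 8 of 53 are close to the first. Their median was 0.23 in the high and -0.31 in the low population, the latter opposite in sign to the 0.40 of the members. In normal mice 11 of the 53 had lower and 0 had higher levels in Nes-GFP high than low BMSCs (unadjusted p under 0.05), led by Mphosph10, with a median of -0.46. Of all genes 11.2% were past that limit in either direction in this comparison, and their median was -0.27. Fbl, the methyltransferase of ribosomal RNA, had -2.32 ± 0.89 (edgeR adjusted p = 0.380) and Ncl, nucleolin, -1.95 ± 0.79 (edgeR adjusted p = 0.399) in that comparison. The summed assembly factors of normal mice overlapped, at 2352 and 3486 CPM for Nes-GFP high libraries. Nes-GFP low replicates 1 to 4 had 2892, 2496, 2794 and 3062 CPM, and replicates 5 and 6 had 7214 and 6413 CPM. How far the 11 genes rest on replicates 5 and 6 was not tested. In AML mice 3 of the 53 were lower and 0 higher (edgeR unadjusted p under 0.05), with a median of -0.18. There Fbl had -2.69 ± 0.94 and Ncl -0.18 ± 0.74.

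Of 19 genes of RNA polymerase I and its factors, 1 had a higher and 2 a lower level for AML in the high population (unadjusted p under 0.05), and 0 in the low, with medians of -0.12 and -0.02. Rrn3, which brings the polymerase to its promoter, had the smallest p (edgeR adjusted p = 0.222 in the high population). Of 24 initiation factors 3 were higher and 0 lower in the high and 0 either way in the low population, again unadjusted, with medians of -0.04 and -0.23. Of 18 p53 targets tested 1 was higher and 1 lower in the high population, with Plk2 leading (edgeR adjusted p = 0.176), and 0 in the low. Of 76 mitochondrial ribosomal protein genes 5 were higher and 2 lower in the high and 1 lower in the low population, with medians of 0.22 and -0.14. None of these lists had a gene past the adjusted test, and over all genes 12.2% in the high and 5.54% in the low population had an unadjusted p under 0.05.

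The libraries with much ribosomal protein mRNA were also high in several of these lists. AML Nes-GFP low replicate 4 and normal Nes-GFP low replicates 5 and 6 had assembly factor sums of 5596, 7214 and 6413 CPM, against 2352 to 4176 CPM in the other 11 libraries. For OXPHOS subunits the same 3 libraries had 21718, 14440.3 and 15645 CPM, against 7306 to 12798 CPM. Their erythroid sums were the 3 highest as well, at 5286, 6698 and 5852 CPM, and so were the sums of 23 cell cycle genes, a list added after the others had been seen, at 3288, 4924 and 3962 CPM, with the next library at 3246 CPM. AML Nes-GFP high replicate 1 was different: it was second in ribosomal protein mRNA with 36742 CPM but had an erythroid sum of 165 CPM, a cell cycle sum of 904 CPM and, at 43649 CPM, the highest sum of immediate early genes. The part of other cells in the ribosomal protein levels was not tested. With the 3 libraries of over 50000 CPM of myeloid transcripts left out together, the members' medians for AML against normal were 0.26 in the high and 0.40 in the low population, and 0 members were called.

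**Figure D5:**
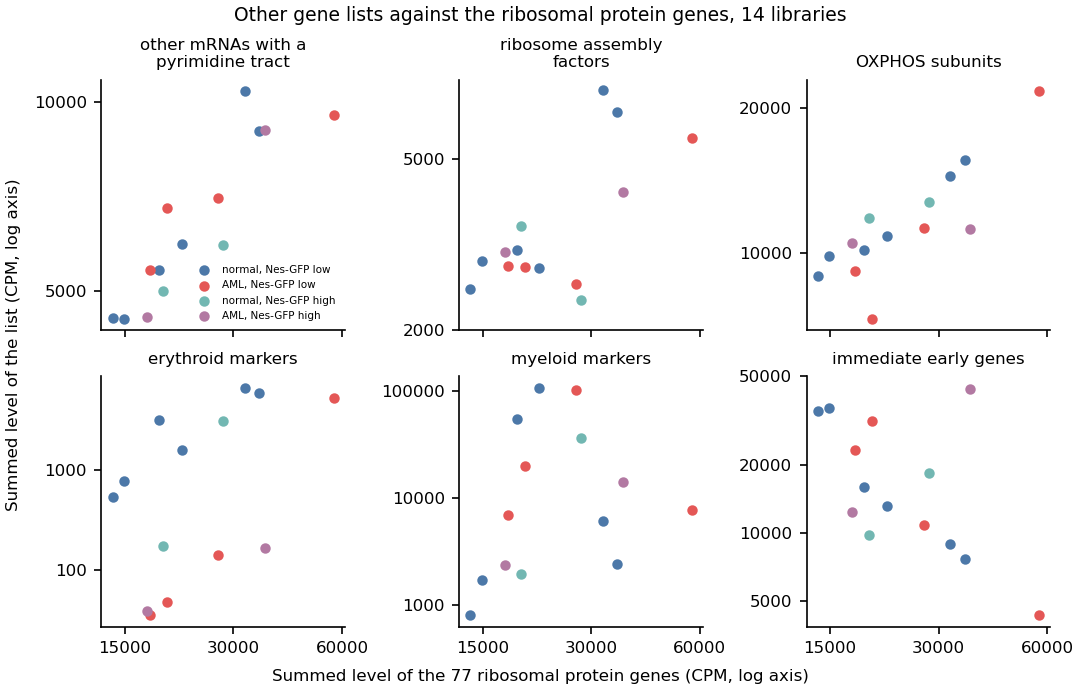
Summed CPM of 6 gene lists (vertical, log axes) against the summed CPM of the 77 ribosomal protein genes (horizontal, log axes) in the 14 libraries, coloured by group. Other mRNAs with a pyrimidine tract range from 4512 to 10426 CPM and are highest where the members are high. OXPHOS subunits, with a maximum of 21718 CPM, stay between 7306 and 12798 CPM except in 3 Nes-GFP low libraries. Assembly factors stay between 2352 and 4176 CPM except in the same 3 libraries.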

How the data were processed

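Per the labels and the study's methods, RNA of sorted cells was amplified to full-length cDNA by Smart-seq2 and sequenced, and the authors trimmed reads with Trim Galore 0.4.1, aligned them to mm10 with TopHat2 2.1.0, counted reads per gene with featureCounts and tested genes with DESeq2 1.14.1. The deposited table holds raw read counts per gene, not normalized, with 27099 rows. Of its 16 library columns 14 matched a labelled sample, and 2 matched none and were not used. How multi-mapped reads and strand were handled is not given in the sources used here.

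All tests used edgeR 4.0.16 (R 4.3.3): quasi-likelihood fits over 14 libraries and 4 groups, TMM normalization, filterByExpr with a minimum count of 10, and Benjamini-Hochberg adjustment over 18152 genes with a threshold of 0.05. The filter was passed by all 77 genes. Levels on the log2 scale had 0.5 CPM added. Alternatives were DESeq2 1.42.0, limma 3.58.1 (voom with sample quality weights), other normalizations and filters, a replicate block, only the compared groups, and leaving out each library in turn. Total counts were 5615941 to 11436652 per library. Pairs of replicates differed by far more than sampling noise in the members' counts (chi-square per degree of freedom 21.4 to 222), so each library counted once.

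Named genes were the 3 with the smallest p per comparison, the 5 highest and 3 lowest per kilobase, the 5 most and 3 least variable around the median member, and genes listed by role. A few of the genes that this rule names are not reported here. The members and lists were chosen with earlier results of these data known, and the cell cycle list, the retrocopies and the omission of libraries rich in myeloid transcripts after values were seen. Positions and transcript lengths come from GENCODE M21 (GRCm38), 1-based, and sequences from RefSeq on GRCm38.p6. Where a gene has several start records, the one with the longest run of C and T was taken. Python 3.11.15 with pandas 2.3.3 and matplotlib 3.10.9 made summaries and figures.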

Additional observations from a re-analysis of the deposited data

Results flagged for a closer look

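In 12 of the 78 gene and group combinations checked, 1 library lay far from the others of its group by Dixon's criterion, which chance alone meets in about 1 of 20 groups. Because the members share the order of the libraries, these are not separate events. In 11 of them AML Nes-GFP low replicate 4 was the highest library: Rplp0 at 3519 CPM (next library 1361), Rpl41 at 2254 (664), Rps2 at 1613 (379), Rplp1 at 1064 (290.4), Rpl14 at 1014 (427), Rps14 at 982 (306), Rpl19 at 963 (411), Rpl5 at 661 (317), Rpl10a at 659.9 (270.4), Rpl38 at 509 (120.2) and Rpl29 at 465 CPM (176). In the other one normal Nes-GFP low replicate 6 had 303 CPM of Rps15a, with the next library at 173 CPM. The summed level of the 77 genes did not meet the criterion in either Nes-GFP low group.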

How the results depend on the processing

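The number of ribosomal protein genes called was 0 in every comparison under every alternative run (26 in 4 comparisons, 25 for the difference of the AML effects). Of all genes tested, edgeR and limma's voom fit called 0 or 1 in each run that kept at least 2 libraries per group. A count of 0 members is therefore near the share of all genes in those runs. DESeq2 called the larger shares of all genes given above. With 1 library left out at a time, the members' median log2 fold change ranged from -0.46 to 0.63 for AML against normal in the Nes-GFP high and from -0.10 to 0.60 in the Nes-GFP low population, from -0.84 to 0.29 for the difference of these effects, and from -0.41 to 0.30 in normal and -0.77 to 0.37 in AML mice for Nes-GFP high against low. Single genes turned in sign without 1 library: Rps27 for AML in the high population (range -0.12 to 1.61, lowest without AML Nes-GFP high replicate 1), and for high against low in normal mice Rps28 (-0.088 to 1.08, lowest without normal Nes-GFP high replicate 1) and Rpl22 (-1.82 to 0.059, highest without normal Nes-GFP high replicate 2). With the replicate number as a block, the median for high against low in normal mice was 0.77, against 0.05 without it, and 0 members were called. With the block Rpl13a was at 1.63 there (0.69 without it) and at -0.31 for AML in the low population (-0.86 without it), and Rps28 was at 1.22, Rpl22 at -0.02, and for high against low in AML mice Rpl7a at -0.36 and Rps9 at -0.16. Same-numbered libraries deviated together in 4 of 14 pairs (r over 0.1, range -0.16 to 0.35) and 4 libraries correlated best with their own number. In a group of 2 libraries the deviations mirror each other. The check therefore cannot show whether same-numbered libraries share more than a number, such as a mouse or a batch. With the library total alone as scale, the median of all genes went from -0.27 to -0.50 in normal and from -0.10 to -0.36 in AML mice for high against low, and that of the members from 0.05 to -0.20 and from -0.10 to -0.38. The causes were not tested. With 2 Nes-GFP high libraries per condition, each omission leaves a lone library, whose spread is taken from the remaining groups.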
